A study of Mus musculus with 48 samples.

Results

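The mitochondrial respiratory chain genes are the nuclear genes for subunits of the 4 electron transport complexes and of the ATP synthase, together with a few genes that share their names. They were picked by gene name alone, with no measured value. Every non-control probe counted whose name was Nduf with a, b, c, s or v and a number (complex I), Sdha to Sdhd (complex II), Uqcr with further letters or digits (complex III), Cox4 to Cox8 with further letters and digits (complex IV) or Atp5 with further letters and digits (complex V). This gave 84 genes with 127 probes, of 34797 gene names and 55681 probes on the array. A value was given to 81 of them, and to 22855 of all gene names, because at least 1 probe was well above background on at least 24 of the 48 arrays. The 81 genes comprised 35 of complex I, 4 of complex II, 8 of complex III, 16 of complex IV, 15 of complex V. The other 3 were Cox4nb, Atp5s and Atp5sl, whose products are not subunits of a complex.

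RNA came from male pups that the labels call Swiss and the study's methods call OF1. They received the inflammatory cytokine interleukin 1B (IL1B, 10 ng/g in the labels) or PBS intraperitoneally from P1 to P5, and no gene was altered. O4+ cells, late progenitors and immature cells of the oligodendrocyte lineage, and CD11B+ cells, which the study calls microglia, were sorted with magnetic beads from brains pooled by 3 per sample. Each of the 8 groups, PBS or IL1B at P5 or P10 in each cell type, held 6 samples with 1 single-color array each. The study states that both cell types came from the same animals. P5 cells were taken hours after the last injection and P10 cells after 5 days without injections. The description field of the P10 labels repeats P5 while their title, source and stage give P10.

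The respiratory chain sits in the inner mitochondrial membrane. Complexes I and II pass electrons from NADH and succinate to ubiquinone, complex III hands them to cytochrome c, complex IV reduces oxygen, and the proton gradient built on the way drives ATP synthesis in complex V. Several complex IV subunits exist as a common form and as isoforms known from muscle, lung or testis, and oligodendrocytes are known for a high demand for ATP and lipid precursors while they make myelin.

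The sorted cells carried the markers of their labels. All 15 microglia markers were lower in O4+ than in CD11B+ cells of PBS pups, with a median difference of -3.01 on the log2 scale at P5 and -4.58 at P10. The oligodendrocyte lineage genes Olig1, Olig2 and Sox10 were higher by a median of 4.87 and 4.03. Microglia markers were not absent from O4+ cells, where their mean log2 level lay between 12.28 and 12.96 in PBS cells and between 13.75 and 14.23 in IL1B cells at P5. At P10 it lay between 11.35 and 12.07 in PBS cells and between 11.79 and 12.48 in IL1B cells, against 15.48 to 16.02 over all CD11B+ arrays. Other markers differed between the cell types of PBS pups as well. Neutrophil and monocyte markers were lower in O4+ cells in 6 of 7 at both ages, by a median of -4.83 at P5 and -5.20 at P10. Endothelial markers were higher in 5 of 6 at both ages, by 1.06 and 0.88, and 1 was lower at P10. Neuron markers were higher in 4 of 5 at P5 and 5 of 5 at P10, by 1.16 and 1.73. Erythroid markers were lower in 1 of 3 at P5 and 3 of 3 at P10, by -0.31 and -1.20. Astrocyte markers were higher in 1 of 6 at P5 and 4 of 6 at P10, by 0.56 and 0.65, and 1 was lower at P10. The part of these markers' cells in the differences of the chain genes was not tested. On each array 52.9% to 65.4% of probes were well above background. The arrays were spread over 9 slides and 5 scan days, and no slide or day held both ages. Slide 9 held 3 arrays, the sixth samples of both O4+ groups and of CD11B+ IL1B cells at P10. Both O4+ arrays of this slide stood apart from their groups for Ndufa4, Ndufa12, Cox6b2, Cox4i1 and Atp5g3, the PBS array also for Cox4i2 and the IL1B array also for Sdhc, and the CD11B+ array stood apart for Ndufa4 and Sdha.

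As a group, the respiratory chain genes were higher in O4+ than in CD11B+ cells, although at P5 this turned round when arrays were scaled to their 75th percentile or taken from the deposited matrix, and they rose with age in O4+ cells and fell with age in CD11B+ cells. Each gene was set relative to its own mean over the 48 arrays, and the median of the 81 genes was taken on each array. In O4+ cells of PBS pups this median was 0.21 ± 0.02 (SD, n = 6, log2 scale) at P5 and 0.42 ± 0.03 at P10, and the lowest P10 array, at 0.39, lay above the highest P5 array, at 0.24. In CD11B+ cells it was -0.17 ± 0.05 at P5 and -0.31 ± 0.03 at P10. IL1B cells at P5 lay lower than PBS cells in both cell types, at 0.14 ± 0.02 and -0.31 ± 0.06. At P10 they lay lower in O4+ cells, at 0.35 ± 0.01, and at -0.27 ± 0.04 in CD11B+ cells, where the ranges of both groups overlapped. The same median over all genes was lower with IL1B in O4+ cells as well. At P5 it lay between -0.044 and -0.0057 (PBS) and between -0.10 and -0.053 (IL1B). At P10 it lay between 0.047 and 0.087 (PBS) and between -0.011 and 0.009 (IL1B). In CD11B+ cells at P5 it lay between -0.029 and 0.095 (PBS) and between -0.072 and 0.043 (IL1B).

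**Figure D1:**
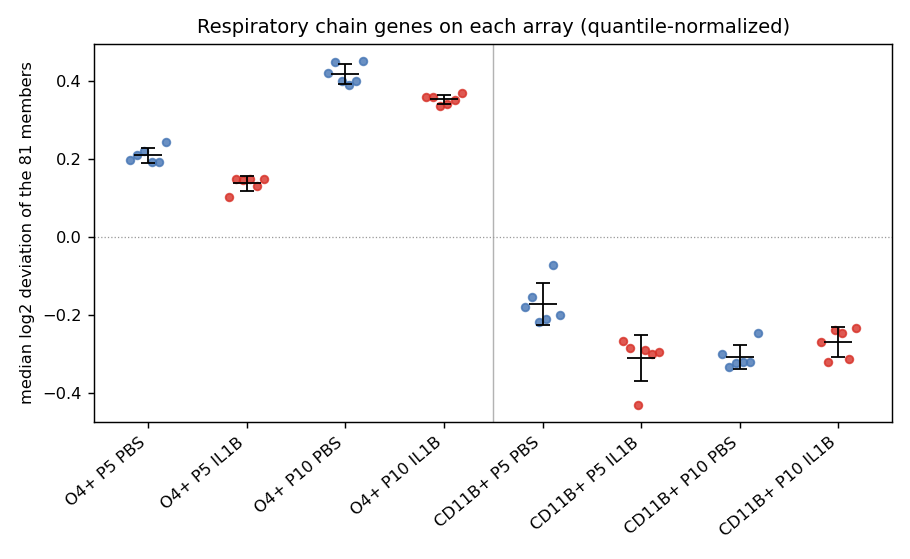
Median of the 81 respiratory chain genes on each array, on the log2 scale relative to each gene's mean over the 48 arrays, for the 8 groups after quantile normalization; points are arrays (PBS blue, IL1B red), and bars are the mean and SD (n = 6). O4+ arrays of PBS pups sit between 0.19 and 0.24 at P5 and between 0.39 and 0.45 at P10, and CD11B+ arrays of PBS pups between -0.22 and -0.07 at P5 and between -0.33 and -0.25 at P10.

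Below, a level is the log2 of the quantile-normalized intensity of a gene, given as the lowest, the median and the highest of the 6 arrays of a group. A difference is the difference of group means on that scale with its standard error from limma, and its p-value is adjusted over the 22855 genes. A gene was called at an adjusted p under 0.05, and the study's further threshold of 1.5-fold, by the ratio of group medians, is given beside the counts. Levels are compared between groups and not between genes.

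The comparison of cell types asks where the chain genes differ between sorted O4+ and CD11B+ cells of PBS pups. At P5, 63 of the 81 genes were higher in O4+ cells and 9 lower, against 38% higher and 44.6% lower among all genes, and the median difference was 0.39 against -0.11 for all genes. This direction is tied to quantile normalization, since with each array scaled to its 75th percentile 8 of the 81 were higher and 57 lower, against 32.8% and 49.9% of all genes. The median was then -0.22 against -0.26 for all genes, and 49 of the 72 called genes changed sign. With the 1.5-fold threshold 21 were higher and 4 lower, against 27.5% and 31.2% of all genes, so the share of members higher by this threshold was near that of all genes. Complex I gave 31 higher and 1 lower of 35, complex II 2 and 1 of 4, complex III 6 and 0 of 8, the common subunits of complex IV 9 and 0 of 11, and complex V 14 and 0 of 15. At P10, 72 were higher and 5 lower, against 41.5% and 38.4% of all genes, with a median of 0.73 against 0.04. Past 1.5-fold 57 were higher and 2 lower, against 31.5% and 29% of all genes. All 8 genes of complex III, all 11 common subunits of complex IV and all 15 genes of complex V were higher at P10. Atp5g1 of complex V is a mean of opposite probes, at 1.16 ± 0.07 and -0.74 ± 0.06. Of the 63 genes higher at P5, 60 (95.2%) were also among the 72 higher at P10, of which they make up 83.3%. Among all genes 33% were higher at both ages, which is 87% of those higher at P5 and 79.6% of those higher at P10.

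Among complex I genes, Ndufv2, which carries an iron-sulfur cluster of the NADH-oxidizing arm, was at 14.05, 14.11 and 14.19 in O4+ cells and at 13.0045, 13.08 and 13.16 in CD11B+ cells at P5. Every O4+ array lay above every CD11B+ array, and the difference was 1.03 ± 0.04 (adjusted p = 1.054e-10). The accessory subunits Ndufb9 and Ndufa5 differed by 0.94 ± 0.06 and 0.88 ± 0.05 at P5 (adjusted p = 2.783e-08 and 6.739e-09), again with no overlap of the groups. At P10 the accessory subunit Ndufb6 was at 13.28, 13.32 and 13.39 in O4+ and at 11.88, 11.93 and 11.97 in CD11B+ cells, a difference of 1.40 ± 0.04 (adjusted p = 1.044e-11), and Ndufs5 differed by 1.34 ± 0.05 (adjusted p = 8.476e-11).

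Ndufa4, named for complex I but a subunit of complex IV, was at 14.27, 14.31 and 14.38 in O4+ cells and at 13.34, 13.39 and 13.50 in CD11B+ cells at P5, a difference of 0.92 ± 0.04 (adjusted p = 2.715e-10). Uqcr11, a small subunit of complex III, was at 14.67, 14.73 and 14.82 against 14.09, 14.11 and 14.32 at P5, and at 15.26, 15.34 and 15.37 against 13.89, 13.93 and 14.05 at P10. O4+ arrays lay above all CD11B+ arrays at both ages, and the difference went from 0.58 ± 0.05 to 1.38 ± 0.05 (adjusted p = 2.868e-07 and 2.428e-11), but at P5 it was -0.11 after scaling to the 75th percentile. The 4 succinate dehydrogenase genes did not move as a block. Sdhb, the iron-sulfur subunit, was higher in O4+ cells by 0.47 ± 0.04 and 0.93 ± 0.05 (adjusted p = 2.399e-07 and 1.337e-09; -0.17 at P5 after scaling to the 75th percentile), whereas the membrane anchor Sdhd was lower by -0.21 ± 0.04 and -0.26 ± 0.05 (adjusted p = 0.0001116 and 0.0002589), with groups apart each time.

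Genes that were lower in O4+ cells at both ages were Cox6a2, Cox7a2l, Ndufa6, Sdhd and Atp5sl. Cox7a2l, which joins complexes III and IV into supercomplexes, was at 14.28, 14.39 and 14.46 in O4+ and at 14.83, 14.84 and 14.96 in CD11B+ cells at P5, and at 14.19, 14.23 and 14.29 against 15.05, 15.09 and 15.16 at P10. The differences were -0.49 ± 0.04 and -0.87 ± 0.04 (adjusted p = 4.019e-07 and 1.122e-09). Atp5sl, linked to complex I assembly, differed by -0.56 ± 0.06 and -0.49 ± 0.06 (adjusted p = 4.235e-06 and 6.14e-06). Cox4nb, a subunit of a membrane insertion complex of the endoplasmic reticulum in spite of its name, was lower in O4+ cells by -0.64 ± 0.05 at P5 (adjusted p = 1.019e-07) and higher by 0.36 ± 0.07 at P10 (adjusted p = 0.0004246). With 75th percentile scaling the P10 comparison had 66 higher and 6 lower members, against 41.1% and 38.8% of all genes. The median was 0.58 against 0.04 for all genes, and 1 of the 77 called genes changed sign.

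**Figure D2:**
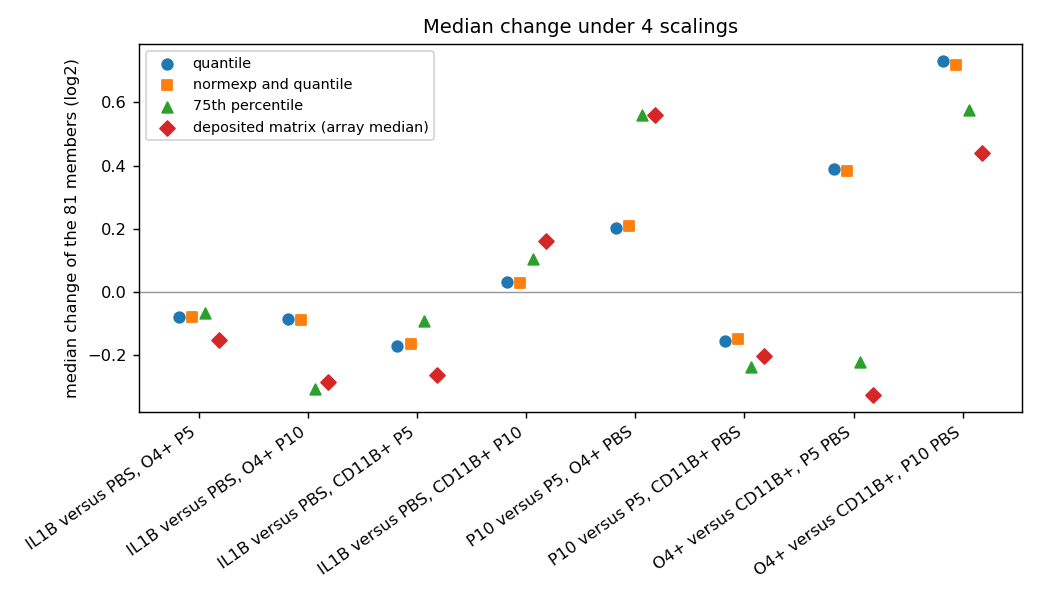
Median change of the 81 genes on the log2 scale in the 8 comparisons under quantile normalization, normexp background correction with quantile normalization, scaling to the 75th percentile, and the deposited matrix, which is centered on each array's median. O4+ against CD11B+ cells at P5 changes sign, from 0.39 to -0.22 and -0.33, and the other 7 comparisons keep theirs.

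**Figure D3:**
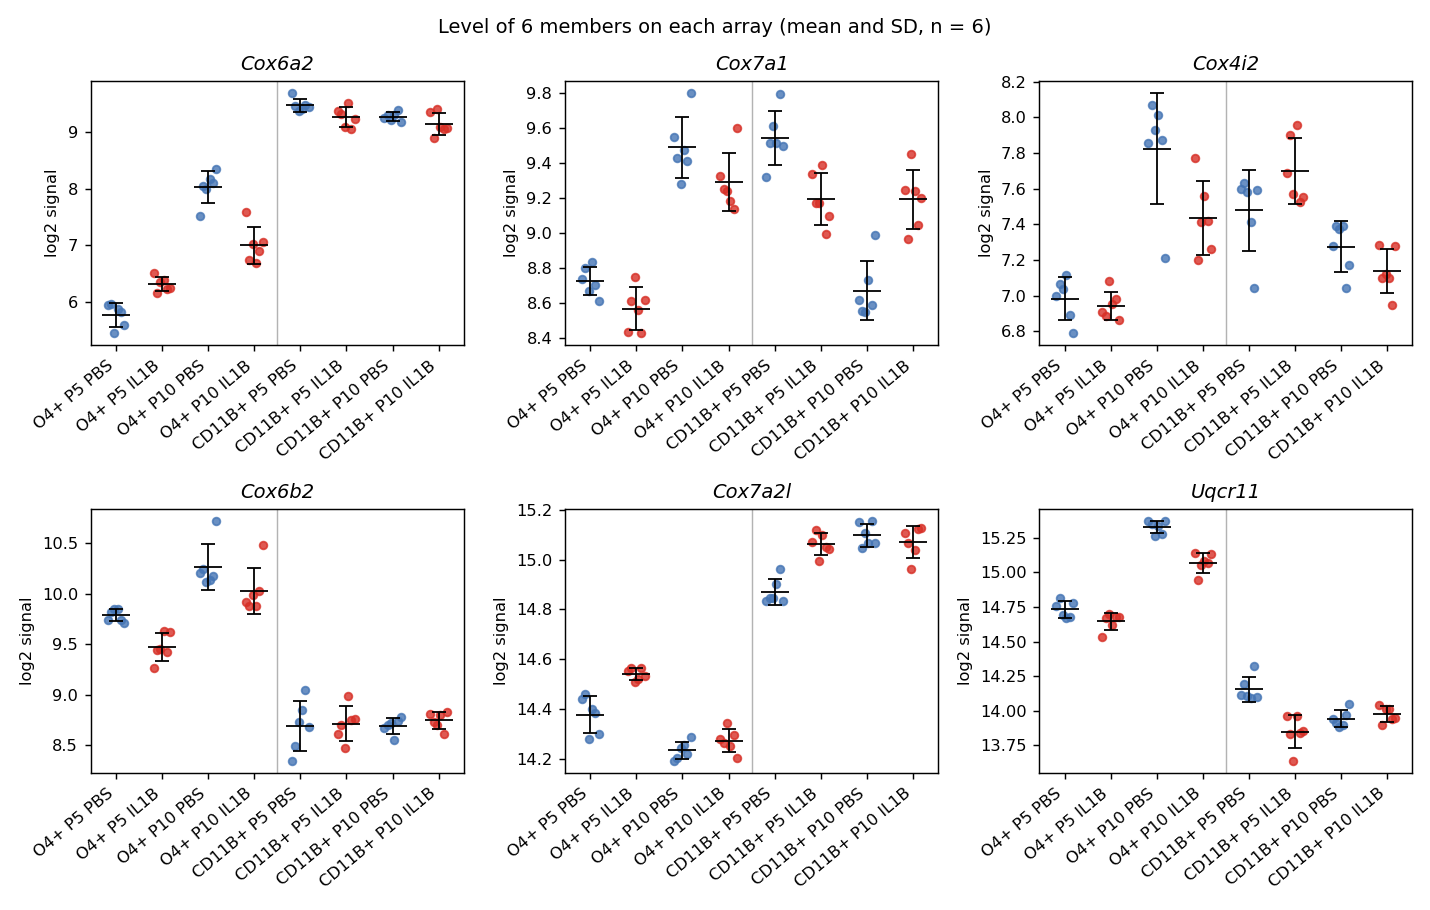
Log2 level of Cox6a2, Cox7a1, Cox4i2, Cox6b2, Cox7a2l and Uqcr11 on each array of the 8 groups; points are arrays (PBS blue, IL1B red), bars are the mean and SD (n = 6), and each panel has a vertical axis of its own. Cox6a2 goes from 5.45 to 5.96 in O4+ cells of PBS pups at P5 to 7.52 to 8.35 at P10, and Cox7a1 changes in opposite directions with age in O4+ and CD11B+ cells.

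Members of complex IV changed with age in O4+ cells by up to 2.26, the value of Cox6a2. Probes of the isoforms are shown because isoforms of a subunit are similar proteins, and the longest run of bases shared by the probes of Cox6a2 and Cox6a1 was 4, of Cox7a1 and Cox7a2 6, and of Cox4i2 and Cox4i1 7. Probe positions are those of the array annotation in mm9. The first 30 bases of the Cox6a2 probe (chr7:135349160-135349219, minus strand) and of the Cox6a1 probe (chr5:115795726-115795785, minus strand) follow with the Cox7a1 probe (chr7:30970337-30970948, plus strand, spanning 612 bases) and the Cox4i1 probe (chr8:123197924-123197983, plus strand) in full.
Cox6a2: agcaatcttcaaattggccttctgcacacc
Cox6a1: ggaccacgaaaaccctttggatgctaagct
Cox7a1: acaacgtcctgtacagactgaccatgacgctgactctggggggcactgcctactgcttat
Cox4i1: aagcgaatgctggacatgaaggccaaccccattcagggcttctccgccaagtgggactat

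Cox6a2 is the heart and skeletal muscle form of subunit VIa. In O4+ cells it was at 5.45, 5.85 and 5.96 in PBS pups and at 6.17, 6.30 and 6.51 in IL1B pups at P5, and at 7.52, 8.08 and 8.35 in PBS pups and at 6.69, 6.96 and 7.59 in IL1B pups at P10. In CD11B+ cells it stayed between 8.89 and 9.69 over all 24 arrays. With age in PBS pups it rose by 2.26 ± 0.13 in O4+ cells, or 4.785-fold by the difference of group means (adjusted p = 4.405e-08), with the groups apart, and fell by 0.20 ± 0.06 in CD11B+ cells (adjusted p = 0.01965). In O4+ cells it was 13.02-fold lower than in CD11B+ cells at P5 and 2.363-fold lower at P10. IL1B raised it in O4+ cells at P5 by 0.54 ± 0.09 (adjusted p = 0.0009372), with every IL1B array above every PBS array, and lowered it at P10 by -1.03 ± 0.16 (adjusted p = 0.001635), with ranges that overlapped. The difference of these responses between the ages was -1.58 ± 0.19 (adjusted p = 5.648e-06). At P5 the microglia markers of O4+ cells rose with IL1B as well (15 of 15), with age they fell (13 of 15), and at P10 they were higher with IL1B (9 of 15), so that Cox6a2 moved with them in the first and against them in the others; their part in the result was not tested.

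The neighbouring gene Itgad, an integrin subunit, moved like Cox6a2 in O4+ cells with age and with IL1B at P10. Itgad was looked at because the RefSeq annotation of GRCm38.p6 lets it overlap the end of Cox6a2, and it was chosen after the values were seen. Its probe (chr7:135348901-135348960, plus strand, mm9) lies 199 bases from that of Cox6a2 and on the other strand. In O4+ cells of PBS pups Itgad was not well above background on any array at P5 and had a mean level of 8.99 ± 0.22 (SD, n = 6) at P10. This was at least 47.1-fold higher, taking the lowest signal well above background for P5. Without this bound the difference was 6.71 ± 0.25 (adjusted p = 1.142e-09). IL1B lowered it at P10 to 7.73 ± 0.29, by -1.27 ± 0.14 (adjusted p = 0.0003314). With IL1B at P5, where Cox6a2 rose, the difference for Itgad was 0.44 ± 0.35 (adjusted p = 0.3392), with 1 of 6 IL1B arrays well above background. In CD11B+ cells its group means lay between 4.00 and 4.91, so Itgad was higher in O4+ than in CD11B+ cells at P10, by 4.08 ± 0.36 (adjusted p = 2.663e-07), where Cox6a2 was lower. Whether transcription of one gene adds to the signal of the other was not tested.

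Cox7a1, the muscle form of subunit VIIa, changed with age in opposite directions. Cox7a1 was at 8.61, 8.72 and 8.83 in O4+ cells at P5 and at 9.28, 9.45 and 9.80 at P10, and at 9.32, 9.52 and 9.79 in CD11B+ cells at P5 and at 8.55, 8.60 and 8.99 at P10. The groups were apart in both, with 0.76 ± 0.08 in O4+ cells (adjusted p = 5.879e-06) and -0.87 ± 0.09 in CD11B+ cells (adjusted p = 3.149e-05). In CD11B+ cells IL1B moved it by -0.35 ± 0.09 at P5 and by 0.52 ± 0.10 at P10 (adjusted p = 0.007795 and 0.009635), and these responses differed by 0.87 ± 0.13 (adjusted p = 3.14e-05). With slide as a block the change at P10 was 0.40 and no longer called (adjusted p = 0.3052). Its common counterpart Cox7a2 rose with age by 0.41 ± 0.05 in O4+ cells and fell by 0.23 ± 0.05 in CD11B+ cells (adjusted p = 1.134e-05 and 0.002586).

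Cox4i2, known from lung and as the form raised by low oxygen, rose with age in O4+ cells from 6.79, 7.02 and 7.11 to 7.21, 7.90 and 8.07, by 0.84 ± 0.13 (adjusted p = 0.0001287), and its change in CD11B+ cells, -0.20 ± 0.11, was not called (adjusted p = 0.1567). Its common counterpart Cox4i1 rose by 0.43 ± 0.07 in O4+ cells (adjusted p = 0.000149). Cox6b2, known from testis, was higher in O4+ cells than in CD11B+ cells by 1.09 ± 0.10 at P5 and 1.57 ± 0.10 at P10 (adjusted p = 5.259e-07 and 7.109e-09), the largest positive difference among members in both comparisons, and its common counterpart Cox6b1 by 0.26 ± 0.06 and 0.90 ± 0.07 (adjusted p = 0.001422 and 1.111e-07), with -0.21 at P5 after scaling to the 75th percentile. Cox7b2, Cox8b and Cox8c had no value. Cox7b2, known from testis, was well above background on 22 of the 24 O4+ arrays and on 1 of the 24 CD11B+ arrays. It was at least 1.436-fold higher in O4+ cells of PBS pups at P5 and at least 1.576-fold at P10, taking the lowest signal well above background for the CD11B+ cells. Without this bound its probe differed by 2.72 ± 0.13 and 2.24 ± 0.28 (limma p adjusted over all probes = 2.002e-09 and 2.17e-05). Cox8b, a muscle form, was above background on 3 O4+ arrays at P10 and Cox8c, known from testis, on no array, so neither was detectable in most samples. The 3 genes for subunit c of the ATP synthase encode the same mature protein. Atp5g2 rose with age in O4+ cells by 0.14 ± 0.04 (adjusted p = 0.01551), Atp5g3 moved by 0.06 ± 0.06 (adjusted p = 0.4732), and the 2 probes of Atp5g1 went in opposite directions.

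The comparison of P10 with P5 in PBS pups follows the chain genes through normal maturation. In O4+ cells 50 of the 81 rose and 4 fell, against 29% higher and 29.1% lower among all genes, with a median of 0.20 against -0.01. By the 1.5-fold threshold 6 were higher, Cox6a2, Cox4i2, Cox7a1, Ndufv3, Cox4nb and Uqcr11, and none lower, against 10.9% and 13.9% of all genes. Complex IV had the largest median, 0.42, with 12 rises and 1 fall among 16 genes, followed by complex I with 0.20, 22 rises and 1 fall among 35, complex III with 0.19 and 5 rises among 8, and complex V with 0.14 and 8 rises among 15. Complex II gave 1 rise, Sdhb, and 2 falls, Sdha and Sdhd. In bulk samples more or fewer cells of a type and more or less RNA per cell cannot be told apart. In the same O4+ cells all 5 myelin genes rose, by a median of 1.79, and both progenitor markers fell, by a median of -1.33. Of the microglia markers 13 of 15 fell, by a median of -1.36, as did all 6 endothelial markers, by -0.73, and all 3 erythroid markers, by -0.92. Astrocyte markers gave 3 falls and 1 rise, neuron markers 2 and 1, and neutrophil and monocyte markers 1 and 1. The part of these markers' cells in the result was not tested. Age cannot be told apart from slide or scan day in either cell type.

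Of the genes that rose, Ndufv3, an accessory subunit of the NADH-oxidizing arm, went from 10.14, 10.22 and 10.41 to 10.66, 10.93 and 11.23, by 0.71 ± 0.09 (adjusted p = 2.75e-05), with the P10 arrays above all P5 arrays. Uqcr11 rose by 0.59 ± 0.05 and Cox4nb by 0.66 ± 0.07 (adjusted p = 3.894e-07 and 6.724e-06), also with groups apart. Among common subunits of complex IV, Cox5b rose by 0.54 ± 0.05, Cox6b1 by 0.52 ± 0.07 and Cox8a by 0.47 ± 0.06 (adjusted p = 3.484e-06, 5.67e-05 and 1.531e-05). The 4 falls were small. Sdha, which oxidizes succinate, was at 13.44, 13.52 and 13.58 at P5 and at 13.11, 13.32 and 13.36 at P10, a fall of 0.23 ± 0.05 (adjusted p = 0.002384), and Ndufs3, Sdhd and Cox7a2l moved by -0.17 ± 0.04, -0.16 ± 0.05 and -0.14 ± 0.05 (adjusted p = 0.006245, 0.008781 and 0.01855). All 4 became positive when arrays were scaled to the 75th percentile. Under this scaling 77 of the 81 rose and none fell, against 37.2% and 23.2% of all genes, with a median of 0.56 against 0.10.

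In CD11B+ cells 4 of the 81 rose and 38 fell with age, against 20.9% higher and 17.4% lower among all genes, with a median of -0.16 against 0.01. In the same cells all 5 myelin genes were higher, by a median of 1.39, as were the 3 oligodendrocyte lineage markers, by 0.72, and 10 of 15 microglia markers, by 0.21. Endothelial markers were lower in 5 of 6, by -0.73, and the part of these markers' cells in the result was not tested. Complex I gave 3 rises and 10 falls, complex II 3 falls, complex III 6 falls of 8, complex IV 1 rise and 10 falls of 16, and complex V 8 falls of 15. Cox7a1 was the 1 gene lower past 1.5-fold and none was higher, against 5.69% and 6.1% of all genes. Cox7b, a common subunit of complex IV, was at 14.89, 15.10 and 15.49 at P5 and at 14.25, 14.61 and 14.90 at P10, a fall of 0.56 ± 0.16 (adjusted p = 0.01562) with overlapping ranges. Atp5o, which links the head and stalk of the ATP synthase, fell by 0.50 ± 0.10, Cox7c by 0.40 ± 0.14 and Ndufb6 by 0.36 ± 0.04 (adjusted p = 0.001489, 0.04107 and 5.255e-05), and of these only Ndufb6 had its groups apart. The rises were Ndufb5, Cox7a2l, Ndufb11 and Ndufa6, by 0.37 ± 0.07, 0.23 ± 0.04, 0.19 ± 0.05 and 0.17 ± 0.05 (adjusted p = 0.001285, 0.0008973, 0.008849 and 0.02328). With slide as a random block 2 rose and 22 fell, and with scan day as a random block none rose and 2 fell.

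Between the cell types 23 genes were called higher with age in O4+ cells and lower in CD11B+ cells, which is 46% of the 50 rises and 60.5% of the 38 falls. These 23 are 28.4% of the members, against 4.51% of all genes, among which the overlap made up 15.6% of the rises and 26% of the falls. They included the complex III genes Uqcrfs1, Uqcrq, Uqcr10 and Uqcr11 and the complex IV genes Cox5a, Cox5b, Cox6a1, Cox6c, Cox7a2, Cox6a2 and Cox7a1. The opposite change, lower in O4+ and higher in CD11B+ cells, was seen in Cox7a2l, which rose in O4+ cells by 0.26 after scaling to the 75th percentile. A test of the difference itself, chosen after the data were seen, called the age effect larger in O4+ cells for 56 of the 81 genes and smaller for 2, Cox7a2l and Sdha (both larger, by 0.13 and 0.23, after scaling to the 75th percentile), against 23.2% and 24.9% of all genes, with a median of 0.38. The largest were Cox6a2 at 2.46 ± 0.15 and Cox7a1 at 1.63 ± 0.12 (adjusted p = 2.429e-11 and 4.87e-10).

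**Figure D4:**
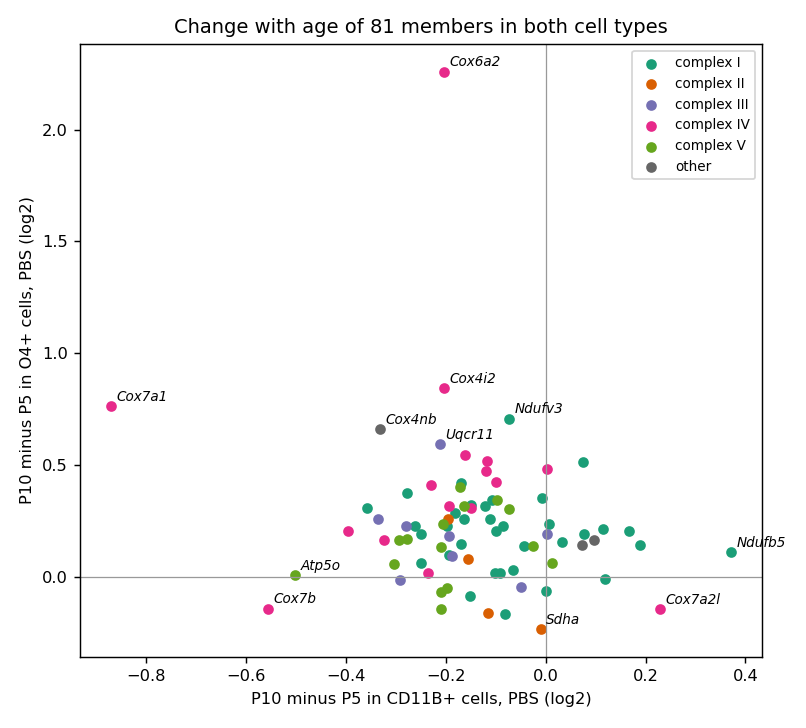
Difference between P10 and P5 in PBS pups for each of the 81 genes on the log2 scale, in CD11B+ cells on the horizontal axis and in O4+ cells on the vertical axis, colored by complex. Most points lie in the upper left, with 23 genes (28.4%, against 4.51% of all genes) called higher in O4+ and lower in CD11B+ cells, and Cox7a1 and Cox6a2 lie farthest from the rest.

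The comparison of IL1B with PBS at P5 shows the chain hours after the last injection. In O4+ cells 2 of the 81 were higher and 24 lower, against 13.2% and 24.2% of all genes, so the share of members called lower was near that of all genes, and the median of -0.08 stood beside -0.06 for all genes. None passed the 1.5-fold threshold, against 5.89% of all genes higher and 1.91% lower. With slide as a block 6 were lower, and without the first IL1B sample 15. Scaling to the 75th percentile gave 7 lower, against 20.3% of all genes, and the deposited matrix 59, against 36.8%. Complex I gave 11 falls of 35 and complex V 8 of 15, while no gene of complex II was called. Cox6a1, the common form of subunit VIa, was at 17.52, 17.61 and 17.72 in PBS cells and at 17.18, 17.32 and 17.39 in IL1B cells, a difference of -0.30 ± 0.05 (adjusted p = 0.0004238) with the groups apart. Cox6b2 changed by -0.31 ± 0.06, also with groups apart, and Cox7b by -0.46 ± 0.13, with overlap (adjusted p = 0.002067 and 0.01376). Ndufa13 and Ndufb5 changed by -0.17 ± 0.03 and -0.17 ± 0.05 (adjusted p = 0.002558 and 0.02549). The 4 probes of Ndufb5 ran from -0.51 to 0.015, and the last is its brightest probe. Besides Cox6a2, Cox7a2l rose, from 14.28, 14.39 and 14.46 to 14.51, 14.54 and 14.56, by 0.16 ± 0.04 (adjusted p = 0.006576), with the groups apart. In these O4+ cells all 15 microglia markers rose, by a median of 1.26, and 5 of 7 neutrophil and monocyte markers, by 1.60, all 6 endothelial markers fell, by -1.03, and all 5 myelin genes fell, by -0.43; their part in the chain genes' values was not tested.

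In CD11B+ cells at P5, 3 of the 81 were higher and 41 lower with IL1B, against 14.3% and 26.3% of all genes, with a median of -0.17 against -0.06. None passed 1.5-fold, against 5.63% of all genes higher and 8.78% lower. Complex I gave 21 falls of 35, complex III 5 of 8, complex IV 6 of 16 and complex V 8 of 15, and complex II none of 4. Scaling to the 75th percentile gave 21 lower, against 22.8% of all genes, and the deposited matrix 13, against 24.5%. In 37 of the 81 (45.7%) every IL1B array lay below every PBS array, against 17.5% of 22845 genes. Cox7b was at 14.19, 14.66 and 14.79 with IL1B and at 14.89, 15.10 and 15.49 without, a difference of -0.59 ± 0.15 (adjusted p = 0.007301). Ndufa12, an accessory subunit of complex I, was at 13.38, 13.43 and 13.45 against 13.77, 13.93 and 14.17, a difference of -0.53 ± 0.06 (adjusted p = 3.765e-05). Cox6a1, Ndufs6 and Ndufa5 changed by -0.43 ± 0.06, -0.38 ± 0.08 and -0.36 ± 0.05 (adjusted p = 8.112e-05, 0.002482 and 0.0001137), each with the groups apart. The rises were Ndufa6, an accessory subunit of complex I, from 13.32, 13.38 and 13.55 to 13.75, 13.80 and 13.91, by 0.42 ± 0.05 (adjusted p = 8.429e-05), Cox7a2l by 0.19 ± 0.04 and Uqcrh by 0.17 ± 0.05 (adjusted p = 0.003022 and 0.0157). All 7 neutrophil and monocyte markers rose in the same cells, by a median of 3.0998, and their mean level went from between 8.999 and 10.04 to between 12.14 and 12.96. All 6 endothelial markers fell, by -1.0015, and the 3 oligodendrocyte lineage markers, by -0.67; their part in the chain genes' values was not tested. With slide as a block 5 were lower, in a fit in which slide 4 is the only slide that holds both groups, with 4 IL1B arrays and 1 PBS array. Within it the median difference was -0.14, with 66 of the 81 negative, and within scan day 2, with 4 against 5 arrays, -0.14, with 67 negative.

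The lists of falls at P5 shared 17 genes, which is 70.8% of the 24 in O4+ cells and 41.5% of the 41 in CD11B+ cells, among them Ndufs1 and Ndufs3 of complex I and Atp5a1 and Atp5b of complex V. They are 21% of the members, against 13.7% of all genes, among which the shared falls made up 56.7% of those in O4+ and 52.1% of those in CD11B+ cells. These comparisons share no array, although the study drew both cell types from the same animals. The difference of the responses was called for 18 genes, 15 with the response higher in O4+ cells and 3 with it lower, against 14.8% and 7.06% of all genes. Scaling to the 75th percentile gave 4 and 4, and the deposited matrix 2 and 0. Ndufa12 fell by less in O4+ cells, with a difference of 0.43 ± 0.07 (adjusted p = 5.566e-05), and the rise of Ndufa6 was smaller there by -0.30 ± 0.07 (adjusted p = 0.001918).

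At P10, 5 days after the last injection, the IL1B comparison asks what remained. In O4+ cells none of the 81 was higher and 8 were lower, against 11.5% and 11.7% of all genes, with a median of -0.09 against -0.02. With quantile normalization the share of members called lower was thus near that of all genes. The 8 were Cox6a2, Ndufv3, Cox4nb, Uqcr11, Cox5b, Cox7a2, Ndufb6 and Cox8a, and Cox6a2 alone was past 1.5-fold, against 2.3% of all genes lower and 4.47% higher. The comparison with age in PBS cells shares the same P10 PBS arrays, and there these 8 genes differed by 2.26, 0.71, 0.66, 0.59, 0.54, 0.41, 0.31 and 0.47 in this order. The genes were picked for being low against these arrays, so the sharing favours the opposite sign with age. Ndufv3 was at 10.66, 10.93 and 11.23 in PBS cells and at 10.16, 10.45 and 10.696 in IL1B cells, a difference of -0.50 ± 0.11 (adjusted p = 0.007688) with slight overlap. Cox4nb changed by -0.32 ± 0.08 and Uqcr11 by -0.26 ± 0.05, with the groups apart, and Cox5b by -0.22 ± 0.07 with overlap (adjusted p = 0.01039, 0.004663 and 0.03281). In these cells myelin markers were lower in 3 of 5, by a median of -0.40, both progenitor markers higher, by 0.90, and 9 of 15 microglia markers higher, by 0.66. Astrocyte markers were higher in 5 of 6, by 0.58, erythroid markers in 2 of 3, by 1.18, and neutrophil and monocyte markers in 3 of 7, by 0.76; their part in the result was not tested. The count depended on the processing, with 55 lower and none higher after scaling to the 75th percentile, against 20.6% and 9.96% of all genes. The members' median was then -0.31 against -0.09 for all genes. With slide as a block 18 were lower, and 24 without slide 9, which was left out after the data were seen. Shares of all genes were not counted for these fits. Without single samples the count of members lower lay between 5 (without PBS sample 5, IL1B sample 2 or IL1B sample 4) and 14 (without IL1B sample 6).

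In CD11B+ cells at P10 3 of the 81 were higher with IL1B and none lower, against 8.35% and 9.02% of all genes, with a median of 0.03 against -0.02. The deposited matrix gave 11 higher and 75th percentile scaling 15. In the same cells the 3 erythroid markers were higher, by a median of 1.02, astrocyte markers were higher in 3 of 6, by 0.59, and myelin genes lower in 4 of 5, by -0.92; their part in the result was not tested. At an unadjusted p under 0.05 limma gave 15 higher and 4 lower, the methods' equal-variance test gave 6 higher and none lower after adjustment, and none was called once slide entered the fit. The shares of all genes in these fits were not counted. Past 1.5-fold 1 was higher, Cox7a1, against 2.29% of all genes higher and 2.45% lower. Besides Cox7a1, Ndufb7 changed by 0.22 ± 0.07 and Atp5e, a subunit of the head of the ATP synthase, by 0.17 ± 0.05 (adjusted p = 0.04044 and 0.04621), with overlap. Without the sixth PBS sample 13 members were higher and 2 lower, again with no share of all genes counted. The response differed between the ages in CD11B+ cells for 45 genes, 42 with the response higher at P10 and 3 with it lower, against 21.3% and 13.2% of all genes. The 3 were Ndufa6, Cox7a2l and Uqcrh, by -0.43 ± 0.06, -0.22 ± 0.05 and -0.17 ± 0.06 (adjusted p = 2.239e-05, 0.003199 and 0.02566). In O4+ cells it differed for 10, 4 higher and 6 lower, against 16% and 11.7%, which became 0 and 45 after scaling to the 75th percentile and 0 and 16 with the deposited matrix. Between the cell types at P10 it was lower in O4+ cells for 18 and higher for none, against 7.92% and 8.59%, with 61 and 60 lower under these scalings, among them Cox6a2 by -0.91 ± 0.19 and Cox7a1 by -0.72 ± 0.14 (adjusted p = 0.003004 and 0.001458).

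**Figure D5:**
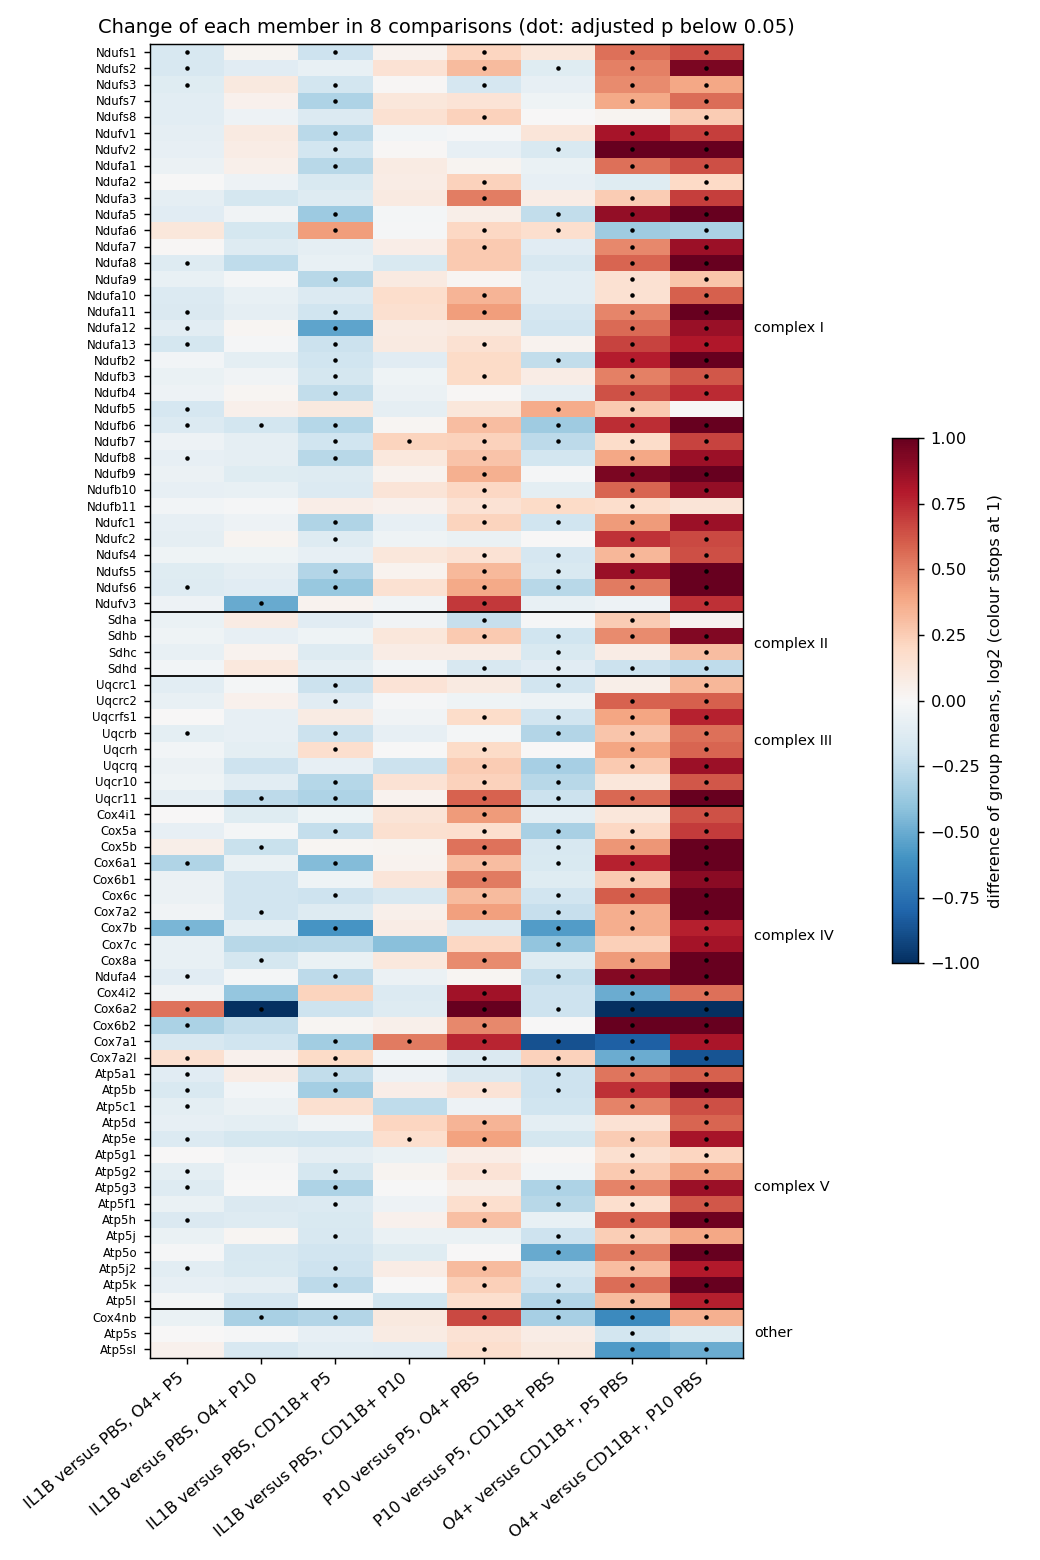
Difference of each of the 81 genes (rows, by complex) in the 8 comparisons (columns) as color on the log2 scale, red for higher and blue for lower, with a dot where the adjusted p was under 0.05. The cell type columns are mostly red, with medians of 0.39 at P5 (-0.22 after scaling to the 75th percentile) and 0.73 at P10, and the column for IL1B in CD11B+ cells at P5 is mostly blue, with a median of -0.17.

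Other genes of the pathway were read from lists in the same fits. Among all genes 29% rose and 29.1% fell with age in O4+ cells, and 20.9% rose and 17.4% fell in CD11B+ cells. With IL1B at P5 13.2% of all genes rose and 24.2% fell in O4+ cells, and 14.3% rose and 26.3% fell in CD11B+ cells. In O4+ against CD11B+ cells at P10 41.5% of all genes were higher. The 13 subunits encoded in mitochondrial DNA, a list added after the files were seen, rose with age in O4+ cells in 10 of 13, by a median of 0.59. In CD11B+ cells 1 rose and 1 fell. All 13 were higher in O4+ than in CD11B+ cells at P10, by a median of 0.81, and at P5 with IL1B 5 rose and 2 fell in O4+ cells. Of 73 mitochondrial ribosomal proteins 36 rose and 6 fell with age in O4+ cells, and 4 rose and 43 fell with age in CD11B+ cells. With IL1B at P5 39 fell and none rose in O4+ cells and 51 fell and 1 rose in CD11B+ cells. Of 27 assembly factors with a value 14 rose and 2 fell with age in O4+ cells and 18 fell with IL1B at P5 in the same cells. In CD11B+ cells 5 assembly factors rose and 9 fell with age. Of 13 citric acid cycle enzymes 7 fell with IL1B at P5 in O4+ cells, and 3 rose and 2 fell with age in these cells. With IL1B at P10 3 of these enzymes were higher in O4+ cells and none lower, against 11.5% and 11.7% of all genes. Cytosolic ribosomal proteins, which the rule does not take, gave 2 rises and 34 falls of 79 with age in O4+ cells, which became 63 rises and 1 fall after scaling to the 75th percentile, and 16 rises and 2 falls with IL1B at P5.

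Of 11 chain genes outside the name pattern 4 rose and 2 fell with age in O4+ cells, against 29% and 29.1% of all genes, with a median of -0.01. In CD11B+ cells 1 rose and 4 fell with age, against 20.9% and 17.4%. With IL1B at P5 1 rose and 5 fell in O4+ cells, against 13.2% and 24.2%, and 1 rose and 7 fell in CD11B+ cells, against 14.3% and 26.3%. Ndufab1, the acyl carrier protein of complex I, changed with age by 0.26 ± 0.07 in O4+ and by -0.60 ± 0.07 in CD11B+ cells (adjusted p = 0.006246 and 4.333e-05), and with IL1B at P5 by -0.28 ± 0.06 and -0.64 ± 0.05 (adjusted p = 0.004065 and 3.056e-06). Usmg5, a small subunit of the ATP synthase, rose with age by 0.44 ± 0.04 in O4+ cells and fell by 0.19 ± 0.05 in CD11B+ cells (adjusted p = 1.553e-06 and 0.01654). Of 15 regulators of mitochondrial biogenesis 2 rose and 5 fell with age in O4+ cells. Ppargc1a, a coactivator of this program, was higher in O4+ than in CD11B+ cells by 2.89 ± 0.37 at P5 and 2.55 ± 0.20 at P10 (adjusted p = 1.064e-05 and 6.549e-08), whereas Nrf1, Gabpa and Yy1, factors whose motifs are searched below, were lower in O4+ cells at both ages. Of the 15 regulators 4 were higher and 10 lower in O4+ cells at P5, against 38% and 44.6% of all genes. At P10 3 were higher and 9 lower, against 41.5% and 38.4%. With IL1B at P5 1 of the 15 rose and 6 fell in O4+ cells, and 2 rose and 4 fell in CD11B+ cells. Among them Tfb1m, which acts on mitochondrial ribosomal RNA, fell by 0.46 ± 0.06 in O4+ cells and by 0.55 ± 0.05 in CD11B+ cells (adjusted p = 7.991e-05 and 3.46e-06), and Esrra, a nuclear receptor, rose by 0.21 ± 0.04 and 0.21 ± 0.05 (adjusted p = 0.002734 and 0.00783).

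Promoters were read for the cores of 3 motifs. RefSeq windows of GRCm38.p6, from 250 bases before to 50 bases after the gene start, matched 69 of the 84 genes and were searched on both strands for the cores GCATGCGC of NRF1, CCGGAAGT of ETS factors such as GABPA, and AAGATGGCG of YY1. The NRF1 core overlaps its own reverse complement in part, so that both strands can match at nearly the same place. The NRF1 core stood in 10 (14.5%), against 3.05% of 27025 genes with a window. The ETS core stood in 5 (7.25%), against 4.31%, and the YY1 core in 8 (11.6%), against 1.64%. At least 1 core was held by 22 (31.9%), against 8.47% of all. A match is a description of the letters and not a site. The windows below lie upstream of the gene start, read along the gene's strand with the core in capitals, for genes named above, and the NRF1 core in the first example starts 160 bases before the start.
Cox6a1 (NRF1, chr5:115349081-115349148, minus strand): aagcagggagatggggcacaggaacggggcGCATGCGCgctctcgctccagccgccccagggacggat
Ndufa6 (NRF1, chr15:82354337-82354404, minus strand): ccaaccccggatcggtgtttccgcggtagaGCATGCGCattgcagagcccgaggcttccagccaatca
Sdhb (NRF1, chr4:140961187-140961254, plus strand): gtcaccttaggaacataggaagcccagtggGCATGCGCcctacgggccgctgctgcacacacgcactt
Atp5g2 (NRF1, chr15:102671050-102671117, minus strand): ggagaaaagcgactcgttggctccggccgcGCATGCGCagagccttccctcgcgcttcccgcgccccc
Uqcr11 (ETS, chr10:80406850-80406917, minus strand): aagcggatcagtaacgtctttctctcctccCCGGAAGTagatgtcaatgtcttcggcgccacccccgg
Of the 10 genes with the NRF1 core, Cox6a1 and Ndufa6 were named above for their large changes with IL1B in CD11B+ cells at P5, by -0.43 and 0.42. Whether the core bears on any change was not tested.

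Genes with several probes gave a check within the array. Of 28 such genes all probes had the same sign in 23 with age in O4+ cells, in 22 with age in CD11B+ cells, in 22 and 23 between the cell types at P5 and P10, and in 19, 21, 20 and 11 with IL1B in O4+ cells at P5 and P10 and in CD11B+ cells at P5 and P10. The 2 probes of Atp5g1 were called in opposite directions, with age at 0.45 ± 0.05 and -0.32 ± 0.06 in O4+ cells and at -0.37 ± 0.06 and 0.40 ± 0.11 in CD11B+ cells, so its mean near 0 describes neither. Of the 4 used probes of Ndufb5 1 fell by 0.12 ± 0.04 with age in CD11B+ cells and 2 rose, by 0.56 ± 0.10 and 1.16 ± 0.22, so the rise of Ndufb5 rests on the last pair. Between the cell types at P10 the probes of Ndufb5 that were called differed by 0.75, 0.52 and -1.53 and those of Ndufb11 by 0.75, 0.65 and -1.01. At P5 1 probe of Ndufb5, at -0.51, was lower in O4+ cells and 3 higher. Single probes of Ndufa3, Ndufb11 and Ndufv3 were lower in O4+ than in CD11B+ cells at P5 while the other probes of these genes were higher or not called. The 3 probes of Ndufv3 all rose with age in O4+ cells, by 0.48 to 0.91. One of the probes of Cox5b is annotated to another chromosome than the gene, and both its probes rose with age in O4+ cells, by 0.62 ± 0.06 and 0.46 ± 0.07.

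Across arrays the members varied together only in part. After group means were taken out, the median correlation between pairs of members over the 48 arrays was 0.18, 0.27 for genes of the same complex and 0.14 for genes of different complexes, and the mean of the members had a correlation of -0.45 with the share of probes above background. Uqcr11, Uqcr10 and Atp5k followed the mean of the other members most closely, with correlations of 0.87, 0.83 and 0.81. These are descriptions over arrays that share slides and scan days.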

How the data were processed

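The authors deposited 48 single-color Agilent scanner files, whose processed intensity per spot is background-subtracted, and a value matrix, which holds the ratio of that intensity to each array's median (largest deviation 1.86e-05 on the log2 scale). From the deposited intensity, 278 flagged spots were left out over all arrays (59305 spots per array besides controls, 0 saturated), and log2 values were quantile-normalized over all arrays as in the study's methods. Probes well above background on at least 24 of 48 arrays were averaged by gene name. Groups came from the labels. Each pair of groups (6 against 6) was fitted with limma 3.58.1 in R 4.3.3, with Benjamini-Hochberg adjustment over 22855 genes. Interactions used 24 arrays. The number of arrays, not counting error, limits the precision, and the fits were tested on simulated data. The study's equal-variance test, other scalings, filters, blocks and left-out samples were alternatives.

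Members and lists were chosen with earlier results of these data known. Named were, per comparison, the 5 largest called rises and falls, the isoform sets, the Sdh genes, Ndufa4, genes that are not subunits, members without a value and members whose probes disagree. Over all comparisons same-numbered samples did not all deviate together (correlations from -0.205 to 0.757), and numbers were not taken as pairs. Between O4+ and CD11B+ cells, which the study drew from the same animals, same-numbered samples had a mean correlation of 0.172 at P5 and 0.182 at P10. For other numbers it was -0.035 and -0.031. There 5 of 6 O4+ samples at P5 and 4 of 6 at P10 correlated best with their own number, so these numbers may pair samples, which the main fits leave out. Samples are pools of 3 brains, and nothing in the labels ties a number to an animal.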

Additional observations from a re-analysis of the deposited data

Results flagged for a closer look

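In groups of 6 samples, a sample was picked out when its gap to the nearest other sample exceeded Dixon's 95% critical value, which chance alone gives in about 1 of 20 groups. Over 25 genes and the median of the members, 26 of 208 groups (12.5%) had such a sample. The sixth samples of the P10 groups, 3 of which lie on slide 9, gave most of them. In O4+ PBS cells the sixth sample stood apart for Cox4i2 at 7.21, Cox6b2 at 10.72, Cox4i1 at 16.74, Ndufa4 at 14.05, Ndufa12 at 14.93 and Atp5g3 at 15.61. In O4+ IL1B cells the sixth sample stood apart for Cox6b2 at 10.48, Cox4i1 at 16.74, Ndufa4 at 13.90, Sdhc at 12.85, Ndufa12 at 14.95 and Atp5g3 at 15.43. In CD11B+ cells at P10 the sixth IL1B sample was low for Ndufa4, at 12.69, and Sdha, at 12.98, and the sixth PBS sample was high for Ndufa4, at 13.27. Among CD11B+ PBS cells at P5 the fifth sample stood apart for Cox4i2 at 7.04, Cox4i1 at 16.19, Cox6a1 at 17.02, Cox6b1 at 12.45 and Atp5g1 at 13.85, and the first for Cox6a2 at 9.69. The third CD11B+ IL1B sample at P5 was low for the median of the members, at -0.43, and for Cox4i1, at 15.67. Single samples stood apart for Sdhc at 12.46 (first O4+ PBS sample at P10), Ndufa6 at 13.45 (replicate 4 of CD11B+ PBS cells at P10) and Atp5g1 at 14.00 (second CD11B+ PBS sample at P10).

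Responses that differed between ages or cell types by the interaction term are given for at most 4 genes per test. The IL1B response of O4+ cells differed between P10 and P5 by -1.58 for Cox6a2, -0.45 for Ndufv3, 0.21 for Ndufs3 and 0.23 for Cox6a1 (limma adjusted p = 5.648e-06, 0.0146, 0.01352 and 0.007091), with Ndufs3 at -0.050 and Cox6a1 at -0.34 after scaling to the 75th percentile and Cox6a1 at -0.24 with the deposited matrix. In CD11B+ cells it differed by -0.43 for Ndufa6, -0.22 for Cox7a2l, 0.66 for Cox7b and 0.87 for Cox7a1 (adjusted p = 2.239e-05, 0.003199, 0.02716 and 3.14e-05). Between O4+ and CD11B+ cells the response at P5 differed by -0.30 for Ndufa6, -0.27 for Ndufb5, 0.43 for Ndufa12 and 0.75 for Cox6a2 (adjusted p = 0.001918, 0.03943, 5.566e-05 and 0.0001683), with Ndufb5 at 0.014 by its brightest probe and 0.051 by probes above background on all arrays. At P10 it differed by -0.91 for Cox6a2 and -0.72 for Cox7a1 (adjusted p = 0.003004 and 0.001458). The change with age in PBS pups differed by -0.37 for Cox7a2l, -0.22 for Sdha, 1.63 for Cox7a1 and 2.46 for Cox6a2 (adjusted p = 8.678e-06, 0.003318, 4.87e-10 and 2.429e-11), with Cox7a2l at 0.13 and Sdha at 0.23 after scaling to the 75th percentile and at 0.10 and 0.20 with the deposited matrix.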

How the results depend on the processing

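Of 2166 values of named genes under the alternatives, 1974 kept direction and call, 172 kept direction and lost the call, and 20 reversed; the cause was not tested. Counts below are members higher and lower.

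Scaled to the 75th percentile, IL1B gave 7 lower in O4+ cells at P5 and 55 at P10, and in CD11B+ cells 21 lower at P5 and 15 higher at P10. Age gave 77 and 0 in O4+ and 2 and 60 in CD11B+ cells, and O4+ against CD11B+ at P5 gave 8 and 57, with the median reversed to -0.22. The shares among all genes were 37.2% and 23.2%, 17.8% and 20.8%, and 32.8% and 49.9%. Cox7a2l, Ndufs3, Sdha and Sdhd reversed with age in O4+ cells, to 0.26, 0.28, 0.12 and 0.26. The IL1B response by age in O4+ cells gave 0 and 45 (median -0.26, Cox6a1 -0.34, Ndufs3 -0.050), the response by cell type 4 higher at P5 and 61 lower at P10, and age by cell type 0 lower, with Cox7a2l at 0.13 and Sdha at 0.23.

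With the deposited matrix IL1B gave 1 and 59 in O4+ cells at P5, 51 lower at P10, 0 and 13 in CD11B+ cells at P5 and 11 higher at P10. Age gave 77 and 0 in O4+ cells (Cox7a2l 0.26, Ndufs3 0.28, Sdha 0.12, Sdhd 0.26) and 1 higher in CD11B+ cells, and O4+ against CD11B+ at P5 gave 4 and 64 (median -0.33). The shares among all genes were 37.3% and 23%, 17.9%, and 30.1% and 54.1%. The response by age gave 0 and 16 in O4+ cells (median -0.15, Cox6a1 -0.24) and 0 lower in CD11B+ cells, the response by cell type 2 and 0 at P5 and 60 lower at P10, and age by cell type 0 lower (Cox7a2l 0.10, Sdha 0.20).

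Normexp gave 1 and 14 for IL1B in O4+ cells at P10, 1 lower in CD11B+ cells at P10 and 5 lower for the response by age in CD11B+ cells. For IL1B in CD11B+ cells at P10, normalization within the cell type gave 1 lower, no filter 1 higher, and probes above background on all arrays 6 and 1. That filter turned Ndufb5 to -0.12 with age in CD11B+ cells and to 0.051 in the response by cell type at P5. The brightest probe gave Ndufb5 0.015, -0.12 and 0.014 for IL1B in O4+ cells at P5, age in CD11B+ cells and that response, with 1 higher for IL1B in CD11B+ cells at P5 and 2 higher with age. The methods' equal-variance test gave 1 and 14 for IL1B in O4+ and 6 higher in CD11B+ cells at P10, and 7 lower with age in O4+ cells. With the 1.5-fold threshold IL1B gave 0 and 0 in both cell types at P5, 1 lower in O4+ and 1 higher in CD11B+ cells at P10, age 6 and 0 and 0 and 1, and O4+ against CD11B+ 21 and 4 at P5 and 2 lower at P10. All groups in 1 fit gave 13 lower in O4+ cells at P5, 18 lower at P10, and 8 and 1 in CD11B+ cells at P10.

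With slide as a block IL1B gave 6 and 18 lower in O4+ cells at P5 and P10, in CD11B+ cells 5 lower at P5 and 0 higher at P10, the response by age 1 higher in O4+ and 5 higher in CD11B+ cells, and the response by cell type 2 higher at P5 and 10 lower at P10. As a random block, slide gave 1 lower with age in O4+ cells and 2 and 22 in CD11B+ cells. Scan date gave 1 and 26 in O4+ and 1 higher in CD11B+ cells for IL1B at P10, 12 higher for the response by age in O4+ cells, 5 lower at P5 and 1 higher at P10 for the response by cell type, and as a random block 1 lower with age in O4+ and 0 and 2 in CD11B+ cells. Without slide 9, a choice made after seeing the data, IL1B gave 24 lower in O4+ and 1 higher in CD11B+ cells at P10, the response by age in O4+ cells 12 and 12, the response by cell type at P10 1 higher, and age by cell type 4 lower.

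With the replicate number as a block, which may not pair samples, IL1B gave 14 and 16 lower in O4+ cells at P5 and P10, 1 lower in CD11B+ cells at P10, and 5 lower for the response by age in CD11B+ cells; other counts stayed within 1.5 times. In no comparison did every sample correlate best with its own number, but 5 of 6 O4+ samples at P5 and 4 of 6 at P10 did so against CD11B+ cells. Between O4+ and CD11B+ cells, which the study drew from the same animals, correlations by number ran from 0.047 to 0.251 at P5 and from -0.026 to 0.284 at P10, with 5 of 6 over 0.1 at each age, and the block gave 64 and 8 at P5 and 72 and 5 at P10.

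Leaving out 1 sample gave 15 to 21 lower for IL1B in O4+ cells at P5 (15 without the first IL1B sample), 5 to 14 at P10, 1 to 13 higher and 0 to 2 lower in CD11B+ cells at P10 (2 without the fifth or sixth PBS sample), 2 to 8 higher for the response by age in O4+ cells (8 without the sixth P10 PBS sample), 3 to 5 lower in CD11B+ cells (5 without the fifth or sixth P10 PBS sample) and 2 to 4 lower for age by cell type (4 without the sixth O4+ PBS sample at P10).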
